A study of Mus musculus with 12 samples.

Results

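Cxcl12 and 9 genes of the stromal matrix were followed through 12 mouse libraries: Cxcl12, Col1a1, Col1a2, Col3a1, Sparc, Fn1, Bgn, Dcn, Timp3 and Vcam1. The members were chosen by name as genes that a feeder layer of OP9 cells, a mouse bone marrow stromal line, may contribute, and all 10 symbols were found once among the 23174 lines of each table. The study sequenced polyadenylated RNA from T-cell acute lymphoblastic leukaemia (T-ALL) of C57BL/6 mice carrying Notch1-deltaE, an activated form of Notch1. In the ex vivo arm, leukaemia cells received the Cxcr4 inhibitor AMD3100 (3 libraries, numbered 1, 2 and 3) or vehicle (3 libraries with the same numbers). In the second arm, primary tumours were Cxcr4-/- Notch1-deltaE+, labelled Cxcr4-KO (3 libraries, numbered 5, 7 and 8), or Cxcr4+/+ Notch1-deltaE+ (3 libraries, numbered 1, 2 and 4). All groups share the Notch1-deltaE allele. The labels describe cells from spleen passaged onto fresh OP9 cells that had been stopped from dividing with 7.5 ng/mL mitomycin C, in medium with 10% serum and 5 ng/ml IL-7. The same culture is given for the tumours, and it stays unclear whether they passed through it before RNA extraction. The dose and duration of AMD3100, the way OP9 and leukaemia cells were separated, and the meaning of a replicate number were not stated in the sources.

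Cxcl12 is a chemokine that stromal cells of bone marrow secrete, and Cxcr4 is its receptor on haematopoietic and leukaemic cells; AMD3100 binds the receptor and not the ligand. Col1a1, Col1a2 and Col3a1 encode the chains of fibrillar type I and type III collagen, Fn1 encodes fibronectin, and Sparc, Bgn and Dcn encode proteins that bind collagen or regulate its assembly into fibrils. Timp3 is an inhibitor of matrix metalloproteinases held in the matrix, and Vcam1 is a surface ligand for the integrin of Itga4 and Itgb1, found on stromal cells, on endothelium and on some macrophages.

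The authors deposited FPKM, a fragment count divided by transcript length and scaled for each library. The steps between low values give back whole reads for 8 of the 10 members, all but Cxcl12 and Dcn, and the scaling of each library relative to vehicle 1. That relative scaling was 1.06, 1.25 and 1.21 in the AMD3100 libraries and 1, 0.908 and 0.757 in the vehicle libraries. It was 1.02, 0.871 and 0.473 in Cxcr4-KO tumours 5, 7 and 8, against 1.44, 1.18 and 1.03 in Cxcr4+/+ tumours 1, 2 and 4. Reads were summed over genes kept ex vivo (a mean of at least 1 FPKM there) that had whole reads. The sums ran between about 2920000 and 6300000 ex vivo and between about 3090000 and 8420000 in the tumours. The lowest were in vehicle 3 ex vivo and in Cxcr4-KO tumour 8. In the tumours the sums leave out genes not kept ex vivo, such as the erythroid markers, and are not the depth of the whole library. The scaling did not follow these sums in every library, and it may not stand for total mapped reads. Cxcr4-KO tumour 5 had a scaling of 1.02 with about 7000000 reads, and vehicle 1 had 1 with about 4630000. All 10 markers of the T lineage were above 0 in all 12 libraries. Cxcr4 itself was at 23.2, 78.9 and 21.9 FPKM in Cxcr4-KO tumours, against 241, 155 and 206 FPKM in Cxcr4+/+ tumours, with no overlap between genotypes. Gapdh, a gene that every cell uses, was listed between 0 and 0.532 FPKM in the tumours and between 0 and 0.179 FPKM ex vivo, so a 0 can also be a failed estimate, and genes are described as listed at 0.

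The members spanned a wide range of levels ex vivo. Cxcl12 had the highest mean over the 6 ex vivo libraries, 9.88 FPKM, followed by Fn1 at 7.39, Bgn at 3.87, Sparc at 2.16, Col1a2 at 1.70 and Col1a1 at 1.49 FPKM. These 6 passed the filter of a mean of at least 1 FPKM. Timp3 averaged 0.213, Col3a1 0.174 and Vcam1 0.111 FPKM, and Dcn was listed at 0 in all 12 libraries. Neighbours in this order were not all separated. Cxcl12 was above Fn1 in 4 of 6 libraries, Col1a2 above Col1a1 in 4 of 6, Timp3 above Col3a1 in 4 of 6 and Col3a1 above Vcam1 in 4 of 6, whereas Fn1 exceeded Bgn, Bgn exceeded Sparc and Sparc exceeded Col1a2 in 6 of 6. Of the markers chosen for OP9 stroma, 6 of 10 were therefore at a level that could be tested, 3 were represented by at most 18 reads in a library, and Dcn was listed at 0.

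No member was called different between AMD3100 and vehicle. The 10 FPKM values added up to 37.2, 22.4 and 18.1 in AMD3100 libraries 1, 2 and 3, against 26.6, 45.1 and 12.5 in vehicle libraries 1, 2 and 3. Both the highest and the lowest sum belonged to vehicle. Of the 6 members tested with limma on log2(FPKM + 1), 0 passed an adjusted p under 0.05, where 13 of all 10245 kept genes did (0.127%), and their median log2 change was -0.19 beside 0.0022 for all kept genes. With the replicate number as a block 0 of 6 passed as well, beside 19.9% of all kept genes. At an unadjusted p under 0.05 the count was also 0 of 6 in both fits, beside 21.5% of all kept genes without the block and 39% with it. In 0 of 6 did the groups fail to overlap, beside 28.9% of all kept genes. In bulk RNA, fewer OP9 cells and less RNA per OP9 cell cannot be told apart, nor can OP9 RNA be told apart from leukaemia RNA, and since nothing says that the libraries came from separate animals or cultures, p-values measure only the spread between these libraries.

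Cxcl12, the ligand of the inhibited receptor, was at 15.9, 8.58 and 7.93 FPKM in AMD3100 libraries 1, 2 and 3, against 10.4, 12.7 and 3.84 FPKM in vehicle libraries 1, 2 and 3. AMD3100 1 was the highest and vehicle 3 the lowest of the 6, and the groups overlapped. The means were 10.8 ± 4.41 FPKM with AMD3100 and 8.97 ± 4.59 FPKM with vehicle (SD, n = 3 each). The log2 change was 0.31 (SE 0.46, 95% interval -0.81 to 1.43, limma adjusted p = 0.776, or 0.449 with the block). The log2 change was -0.14 without vehicle 3 and 0.61 without vehicle 2.

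Type I collagen is a trimer of chains from both Col1a1 and Col1a2. Col1a2 was at 2.34, 1.24 and 0.606 FPKM in AMD3100 libraries 1, 2 and 3, against 1.86, 3.32 and 0.819 FPKM in the vehicle libraries, which stand for 88, 55 and 26 reads against 66, 107 and 22 reads. Col1a1 was at 1.95, 1.39 and 0.692 FPKM with AMD3100, against 1.18, 3.11 and 0.655 FPKM with vehicle. Vehicle 2 held the highest value of both chains, and the groups overlapped. The log2 change was -0.30 for Col1a2 (SE 0.44, 95% interval -1.38 to 0.78, limma adjusted p = 0.776) and -0.10 for Col1a1 (SE 0.43, 95% interval -1.16 to 0.96, limma adjusted p = 0.945). The sign of both turned without vehicle 2, to 0.0054 for Col1a2 and 0.27 for Col1a1, and without vehicle 3 the values were -0.62 and -0.39. Col3a1, the type III chain, was far lower, at 12, 3 and 5 reads in AMD3100 libraries 1, 2 and 3, against 9, 11 and 1 reads with vehicle, which is too few to compare.

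Sparc, a secreted collagen-binding glycoprotein, was at 3.00, 1.97 and 0.659 FPKM in AMD3100 libraries 1, 2 and 3, against 2.39, 3.81 and 1.14 FPKM in vehicle libraries 1, 2 and 3. Its order over the libraries was that of Col1a2, with overlapping groups and a log2 change of -0.27 (SE 0.45, 95% interval -1.39 to 0.84, limma adjusted p = 0.806). Fn1, a matrix glycoprotein that integrins bind, was at 7.89, 5.20 and 3.98 FPKM with AMD3100, against 7.36, 15.5 and 4.38 FPKM with vehicle. Vehicle 2 stood well above the other 5 libraries, with 820 reads. The log2 change was -0.48 (SE 0.45, 95% interval -1.57 to 0.62, limma adjusted p = 0.615), and it was -0.045 without vehicle 2 and -0.85 without vehicle 3.

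Bgn, a small proteoglycan of the same family as Dcn, was at 5.76, 3.62 and 3.95 FPKM in AMD3100 libraries 1, 2 and 3, against 2.99, 5.40 and 1.51 FPKM in vehicle libraries 1, 2 and 3. AMD3100 1 was highest and vehicle 3 lowest, as for Cxcl12, and the groups overlapped. The log2 change was 0.42 (SE 0.38, 95% interval -0.50 to 1.34, limma adjusted p = 0.595), and it was 0.086 without vehicle 3, 0.26 without AMD3100 1 and 0.76 without vehicle 2. Dcn, by contrast, was listed at 0 in all 6 libraries.

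Timp3 and Vcam1 were near the limit of detection ex vivo. Timp3 had 2, 11 and 6 reads in AMD3100 libraries 1, 2 and 3, against 3, 18 and 2 reads with vehicle. Vcam1 had 2, 2 and 1 reads with AMD3100, against 3, 6 and 1 reads with vehicle. At a depth where 1 read was worth between 0.0349 and 0.0576 FPKM of Vcam1, a difference between groups was not detectable for either gene.

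**Figure D1:**
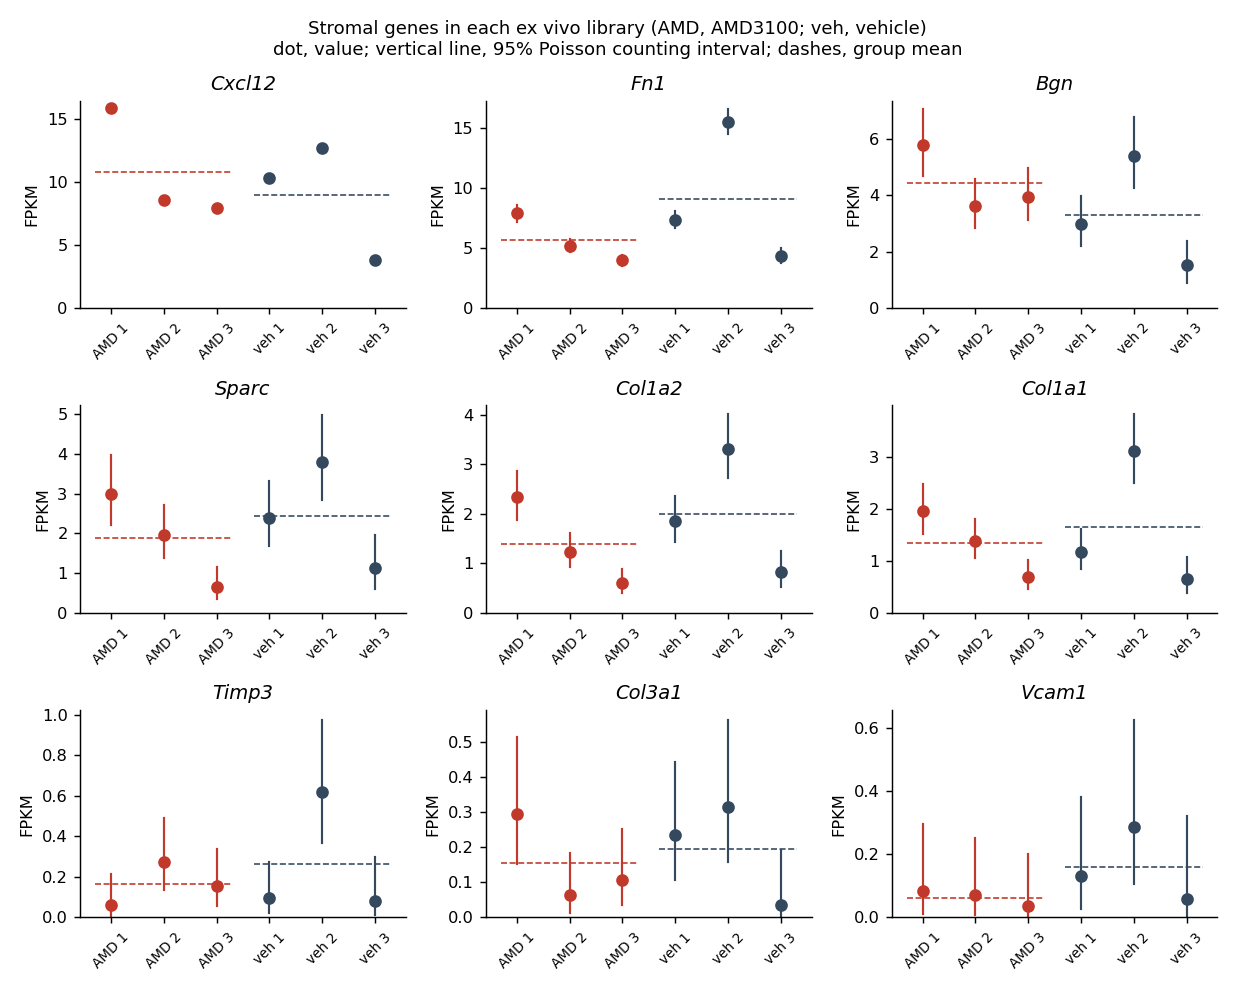
FPKM of the 9 members above 0 in each ex vivo library, AMD3100 (red) left of vehicle (dark), with 95% Poisson intervals for counting error where whole reads were recovered and dashed group means (n = 3 each). Vehicle 2 stands highest for Fn1, Sparc, Col1a2 and Col1a1, AMD3100 1 for Cxcl12 and Bgn, and the groups overlap in each panel.

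**Figure D2:**
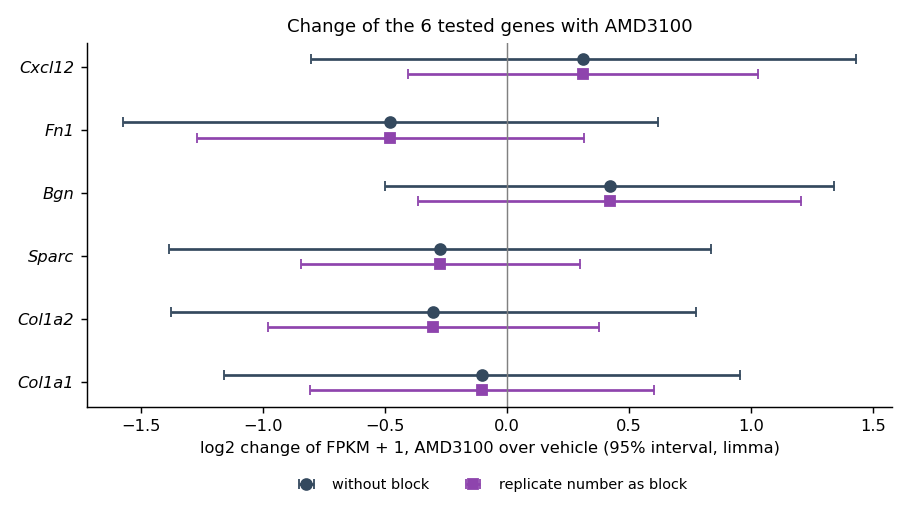
Change of the 6 tested members on the log2(FPKM + 1) scale, AMD3100 over vehicle, with 95% intervals from limma, without a block (circles) and with the replicate number as a block (squares). All 12 intervals include 0; the widest, for Cxcl12 without a block, runs between -0.81 and 1.43.

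The 6 tested members moved together from library to library. Within vehicle the order of the libraries was 2, 1, 3 from high to low for 6 of 6 members. Within AMD3100, library 1 was the highest for 6 of 6 and library 3 the lowest for 5 of 6, Bgn being the exception. Pearson's correlation on the log2 scale over the 6 libraries lay between 0.576 and 0.978 for the 15 pairs of members, with a median of 0.772. It is a description over libraries that share treatment and number.

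This spread exceeded counting error. For the 5 tested members with whole reads, the 95% Poisson interval of the highest library lay above that of the lowest in 5 of 5 within vehicle and in 5 of 5 within AMD3100. Col1a2 shows the size of it, with an interval of 2.72 to 4.01 FPKM in vehicle 2 and of 0.513 to 1.24 FPKM in vehicle 3. For Bgn within AMD3100 the margin was narrow. The interval of library 1 began at 4.67 FPKM and that of library 2 ended at 4.56 FPKM. The highest and lowest libraries were picked by their values. Intervals cover counting error only, since reads copied by PCR are not independent molecules. The highest library exceeded the lowest by a ratio of 3.80 for Bgn, 3.90 for Fn1, 4.13 for Cxcl12, 4.74 for Col1a1, 5.48 for Col1a2 and 5.77 for Sparc.

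The same-numbered pairs did not move one way. In pair 1 all 6 tested members were higher with AMD3100, by ratios between 1.07 (Fn1) and 1.92 (Bgn). In pair 2 all 6 were lower with AMD3100, by ratios between 0.336 (Fn1) and 0.675 (Cxcl12). In pair 3, Bgn (2.61), Cxcl12 (2.06) and Col1a1 (1.06) were higher with AMD3100, and Fn1 (0.908), Col1a2 (0.740) and Sparc (0.578) were lower. Over all kept genes, the deviations of same-numbered libraries (each from its own group mean) correlated at 0.467, 0.579 and 0.619. Over the 6 members alone these correlations were 0.672, -0.037 and -0.36.

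Bgn was high in the AMD3100 libraries relative to Fn1, Sparc and both type I collagen chains, and Cxcl12 relative to Fn1, Sparc and Col1a2, but not Col1a1. Of the 15 ratios between 2 tested members, 7 did not overlap between groups (46.7%), beside 25.2% of the ratios between any 2 kept genes above 0 in all 6 libraries. All 7 have Cxcl12 or Bgn on top. Each ratio was turned so that its mean log2 value was higher with AMD3100. Cxcl12 and Bgn were the 2 tested members with a log2 change above 0, so the pattern restates those changes. Ratios were examined after the values had been seen, the 15 share 6 genes, and an exact permutation test of 3 libraries against 3 cannot give a p under 0.1, so no test is offered.

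The ratio of Bgn to Fn1 was 0.730, 0.695 and 0.994 in AMD3100 libraries 1, 2 and 3, against 0.407, 0.348 and 0.346 in vehicle libraries 1, 2 and 3. The ratio of Cxcl12 to Fn1 was 2.01, 1.65 and 1.99 with AMD3100, against 1.41, 0.819 and 0.878 with vehicle. Every AMD3100 library lay above every vehicle library in both, by a mean log2 difference of 1.12 for Bgn and 0.90 for Cxcl12. Without AMD3100 3 these differences were 0.96 and 0.86.

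Against Col1a2 and Sparc the size of the difference leaned on 1 library, AMD3100 3. The other AMD3100 libraries still lay above every vehicle library, though for Cxcl12 over Sparc only by 4.37 against 4.33. Bgn over Col1a2 was 2.47, 2.92 and 6.52 with AMD3100, against 1.61, 1.63 and 1.85 with vehicle. Cxcl12 over Col1a2 was 6.79, 6.92 and 13.1 with AMD3100, against 5.57, 3.83 and 4.69 with vehicle. AMD3100 3 stood far above the other 5 libraries in both. Without it the log2 difference of Bgn over Col1a2 went down to 0.66 against 1.09 with all libraries, that of Cxcl12 over Col1a2 to 0.56 against 0.87, that of Bgn over Sparc to 0.50 against 1.05, that of Cxcl12 over Sparc to 0.40 against 0.84 and that of Bgn over Col1a1 to 0.35 against 0.70. The 8 ratios that overlapped include Bgn over Cxcl12, at 0.363, 0.421 and 0.498 with AMD3100, against 0.289, 0.425 and 0.394 with vehicle. Cxcl12 over Col1a1 overlapped as well, at 8.12, 6.19 and 11.5 with AMD3100, against 8.80, 4.09 and 5.87 with vehicle, a log2 difference of 0.48. The ratios of Col1a1 to Fn1, Col1a2 and Sparc had log2 differences of 0.42, 0.39 and 0.35. Those of Col1a2 over Fn1, Sparc over Fn1 and Sparc over Col1a2 were 0.029, 0.066 and 0.038.

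**Figure D3:**
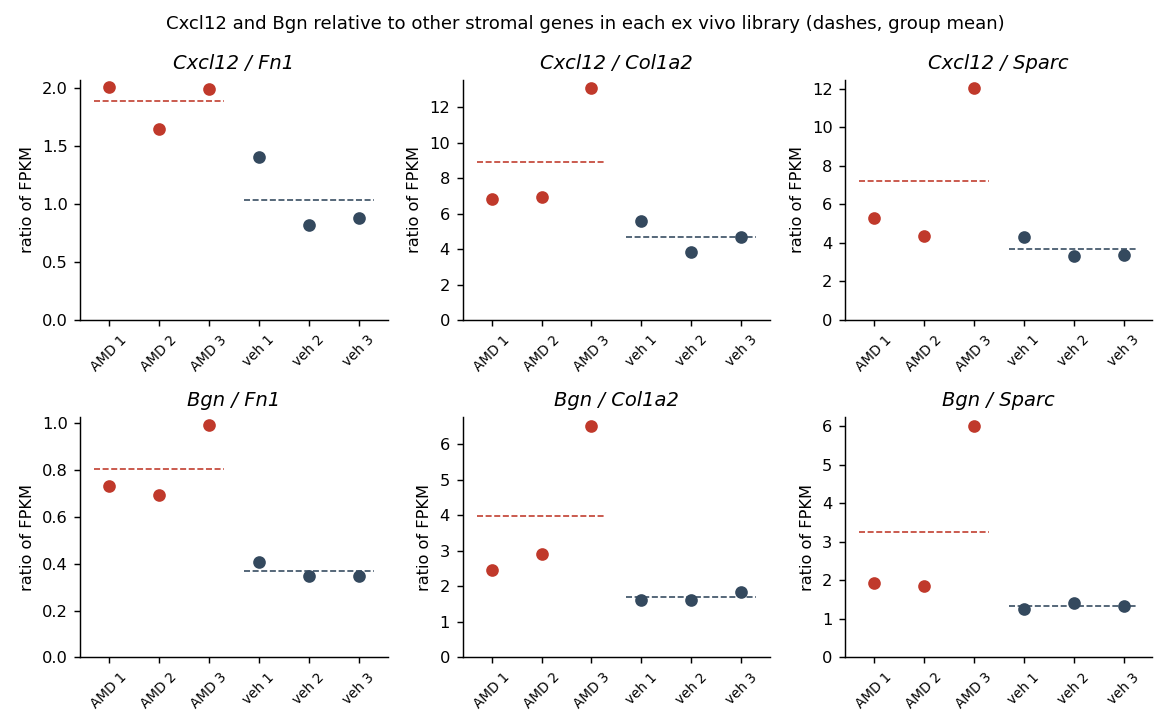
Ratio of FPKM of Cxcl12 (top row) and Bgn (bottom row) to Fn1, Col1a2 and Sparc in each ex vivo library, AMD3100 (red) left of vehicle (dark), with dashed group means. In all 6 panels the AMD3100 libraries lie above the vehicle libraries. All are among the 7 of 15 ratios that did not overlap, so this follows from the choice of panels. Ratios to Col1a1 are not shown, and Cxcl12 over Col1a1 overlapped. In the Col1a2 and Sparc panels AMD3100 3 stands apart, at 13.1 for Cxcl12 over Col1a2 and 5.99 for Bgn over Sparc.

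The sequence before the transcription start is shown for Cxcl12 and Bgn, the genes on top of those ratios, and for Col1a2, the collagen chain below them. RefSeq (GRCm38.p6) gave a promoter for 6 of the 10 members, Cxcl12, Bgn, Col1a2, Sparc, Col3a1 and Timp3. Each line holds the 250 bases before the start, 5′ to 3′ on the gene's strand, with capitals on matches to CCAAT (the CCAAT box), GGGCGG (the GC box) or TATAAA (the TATA box) on either strand. The build is not that of the deposited tables (mm9), from which no coordinates are given. The windows are chr6:117168285-117168534 for Cxcl12, chrX:73483351-73483600 for Bgn and chr6:4505368-4505617 for Col1a2, all on the plus strand.
Cxcl12: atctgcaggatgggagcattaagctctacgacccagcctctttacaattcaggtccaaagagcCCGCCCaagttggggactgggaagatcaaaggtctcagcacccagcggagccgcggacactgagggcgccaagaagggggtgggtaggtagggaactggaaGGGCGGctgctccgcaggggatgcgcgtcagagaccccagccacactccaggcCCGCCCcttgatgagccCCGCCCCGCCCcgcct
Bgn: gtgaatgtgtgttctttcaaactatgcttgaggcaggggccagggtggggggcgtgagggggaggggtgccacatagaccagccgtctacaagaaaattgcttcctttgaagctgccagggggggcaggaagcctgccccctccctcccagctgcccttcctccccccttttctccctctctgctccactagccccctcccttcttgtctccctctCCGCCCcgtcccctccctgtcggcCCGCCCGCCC
Col1a2: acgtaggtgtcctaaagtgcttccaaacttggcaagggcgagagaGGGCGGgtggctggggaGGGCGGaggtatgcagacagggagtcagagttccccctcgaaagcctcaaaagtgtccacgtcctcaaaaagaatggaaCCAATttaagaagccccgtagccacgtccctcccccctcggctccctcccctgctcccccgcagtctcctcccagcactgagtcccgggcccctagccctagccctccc
The Cxcl12 window held 5 GC box matches and the Bgn window 3, the last 2 of each overlapping at the end of the window. The Col1a2 window held 2 GC box matches and 1 CCAAT box. None of the 3 windows held TATAAA. Among all 32851 windows of this length in the table, 32.7% held a GC box match, 33.8% a CCAAT box and 12.4% a TATA box. The matches describe letters and not bound sites.

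Genes of other stromal lists were compared with the members by library pattern. Of 29 genes kept from the collagen, matrix glycoprotein, processing, niche, preadipocyte and contractile lists, 8 had a correlation above 0.8 with the members' mean standardized level, beside 4.87% of all kept genes. For 12 of the 29, more than 80% of the variance lay between replicate numbers, beside 24.4% of all kept genes. Both limits were set after the values were seen. Plod2 and Pdgfrb, 2 genes, passed both and 11 passed neither. Of the 8 genes, 3 were listed at 0 in at least 5 tumours, and of the 12 genes, 2 were. The source of their RNA was not tested.

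Col6a1 and Col6a2, chains of type VI collagen, had correlations of 0.79 and 0.85 with the members. Col6a1 was at 2.64, 2.42 and 0.763 FPKM in AMD3100 libraries 1, 2 and 3, against 5.28, 5.85 and 1.36 FPKM with vehicle. Within each number it was lower with AMD3100, although the groups overlapped. Its log2 change was -0.74, called with the block (limma adjusted p = 0.042) and not without (0.482), and Col6a2 had -0.82 and was not called with the block (0.086). With the block, 9.92% of kept genes were called lower and 9.96% higher, a count of 2036 that was 4, 6 and 559 without number 1, 2 and 3.

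Fbln1, a fibulin of the matrix, followed the replicate numbers. It was at 3.82, 40.1 and 0.146 FPKM in AMD3100 libraries 1, 2 and 3, against 2.96, 40.0 and 0.233 FPKM in vehicle libraries 1, 2 and 3. Each AMD3100 library was close to the vehicle library of its number, and 99.8% of the variance lay between numbers. The share was 98.2% for Lamb1, a laminin chain, 96.9% for Pdgfrb, a receptor of mesenchymal and vascular mural cells, and 97.0% for Igfbp4, a secreted binder of insulin-like growth factors. Correlations of these 4 genes with the members' mean were 0.69, 0.71, 0.83 and 0.76 in that order. Among the members the share between numbers lay between 34.9% (Bgn) and 79.3% (Sparc), with a median of 65.6% beside 49.3% for all kept genes. Fbln1 and Lamb1 were highest in both libraries of number 2, whereas the 6 tested members were high in vehicle 2 and not in AMD3100 2.

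**Figure D4:**
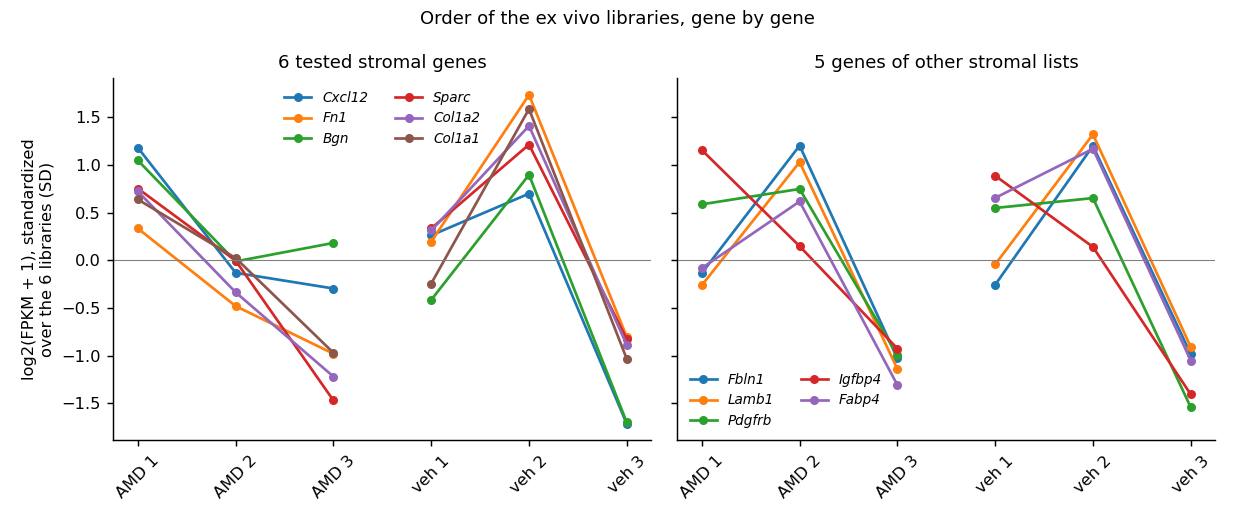
Level of the 6 tested members (left) and of Fbln1, Lamb1, Pdgfrb, Igfbp4 and Fabp4 (right) in each ex vivo library, as log2(FPKM + 1) standardized over the 6 libraries; lines join the libraries of 1 group for reading only. On the left AMD3100 1 and vehicle 2 are high and both number 3 libraries are low for most genes. On the right both number 3 libraries are lowest for all 5 genes, which are a choice and do not stand for their lists. Angpt1 and Cebpb, not shown, go the other way. They are highest in AMD3100 3 and vehicle 3, at 4.85 and 5.13 FPKM for Angpt1 and 59.2 and 12.2 FPKM for Cebpb.

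Among the remaining lists, limma made calls only with the replicate block, which called 19.9% of all kept genes. Over the 7 lists, 39 genes were kept; at an unadjusted p under 0.05, 16 passed with the block, beside 39% of all kept genes, and 4 without it, beside 21.5%. Of the 13 other collagens, 2 were kept and 1 was called, Col6a1. Of the 23 matrix glycoproteins 7 were kept and 0 called, with Fbln2 at a log2 change of -0.56 (limma adjusted p = 0.217 with the block). Of the 20 genes of collagen processing 8 were kept, and 1 was called in each direction. P4hb, the beta subunit of prolyl 4-hydroxylase, fell to 183 ± 4.00 FPKM with AMD3100, against 248 ± 21.1 FPKM with vehicle (SD, n = 3 each; limma adjusted p = 0.027 with the block and 0.071 without). P4ha1, the catalytic alpha subunit, rose to 11.0 ± 2.91 FPKM with AMD3100, against 6.75 ± 0.479 FPKM with vehicle (limma adjusted p = 0.047 with the block and 0.160 without). Both subunit genes were also above 0 in all 6 tumours, as was Timp2, at 70.6, 89.9 and 91.5 FPKM with AMD3100, against 82.0, 72.4 and 96.7 FPKM with vehicle.

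Of the 21 niche genes 5 were kept and Spp1, the secreted matrix protein osteopontin, was called lower. It was at 5.82, 2.01 and 2.37 FPKM in AMD3100 libraries 1, 2 and 3, against 9.38, 9.71 and 7.26 FPKM with vehicle, with no overlap (log2 change -1.24, limma adjusted p = 0.031 with the block and 0.112 without). Of the 10 preadipocyte genes 3 were kept. Fabp4, the fatty acid carrier of adipocytes, was at 17.4, 95.8 and 0 FPKM with AMD3100, against 105, 359 and 0.842 FPKM with vehicle, lower within each number although the groups overlapped (log2 change -1.77, limma adjusted p = 0.026 with the block and 0.761 without). Cebpb, a transcription factor of early adipogenesis, was not called (0.149 with the block). It was at 6.25, 5.31 and 59.2 FPKM with AMD3100, against 4.39, 4.36 and 12.2 FPKM with vehicle. Of the 9 contractile genes 4 were kept and Actn1, an actin crosslinker, was higher at 146, 161 and 105 FPKM with AMD3100, against 107, 111 and 74.1 FPKM with vehicle (limma adjusted p = 0.020 with the block and 0.271 without). Tpm1 was not called (0.114 with the block).

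Receptors of the member proteins are known from T cells as well as from stromal cells. Of 15, 10 were kept. With the block 4 were called higher with AMD3100, Itgb7, Itgb3, Itga4 and Ddr1, beside 9.96% of all kept genes called higher. Without the block 0 were called, beside 0.127% of all kept genes in either direction. The blocked count over all kept genes, 2036, lay between 4 and 559 with a number left out, so these calls are not stable. Itgb7, an integrin beta chain of lymphocytes whose partner chain comes from Itga4, was at 43.1, 32.6 and 206 FPKM in AMD3100 libraries 1, 2 and 3, against 21.1, 17.2 and 78.3 FPKM with vehicle (log2 change 1.09, limma adjusted p = 0.019 with the block and 0.547 without). Each AMD3100 library lay above the vehicle library of its number. Itgb3, the beta chain of a fibronectin and osteopontin receptor, was at 24.5, 38.7 and 25.0 FPKM with AMD3100, against 12.5, 23.0 and 6.86 FPKM with vehicle (log2 change 1.12, limma adjusted p = 0.028 with the block and 0.203 without). Cxcr4 (log2 change 0.29) and Itgb1 (0.10) were not called by either fit.

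The genes whose level was most like the members' mean over the 6 ex vivo libraries were 4922501C03Rik, Cyp1b1, Wdr19, Btd and Hist1h4i, with Pearson's r between 0.974 and 0.983. Those most like Cxcl12 were Sypl, Apoa1bp, Cdk2ap2, Socs5 and Sde2, with r between 0.967 and 0.978. Among the members, Bgn was the closest to Cxcl12 (r 0.924) and Fn1 the least close (0.679). Each r is over 6 libraries out of 10245 kept genes and is a description.

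In the tumours, which served as a contrast, most members were listed at 0. Cxcl12, Col1a2, Col3a1, Sparc, Bgn and Dcn were listed at 0 in all 6 tumours, and Col1a1 in 5 of 6, with 8 reads in Cxcr4-KO tumour 7. Dcn was listed at 0 in all ex vivo libraries as well. Of the 6 members kept ex vivo, 4 were at 0 in all tumours (66.7%). The share was 1.30% among the 10235 genes kept ex vivo that had a single line. The list was chosen with earlier results known, and these shares were not tested. Gapdh was listed at 0 in 5 of these 6 tumours, so the entries are not read as an absence of RNA. The tables were normalized separately, so levels are set side by side here with no test between them.

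Fn1 was the member with the widest spread among tumours. It was at 0.793, 0.985 and 0 FPKM in Cxcr4-KO tumours 5, 7 and 8, against 0.227, 4.35 and 13.8 FPKM in Cxcr4+/+ tumours 1, 2 and 4. Cxcr4+/+ tumours 2 and 4 lay within the ex vivo range of 3.98 to 15.5 FPKM, the other 4 tumours lay below it, and the genotypes overlapped. The log2 change was -1.59 (SE 0.91, 95% interval -3.74 to 0.56, limma adjusted p = 0.986), and it was -0.75 without Cxcr4+/+ tumour 4 and -2.54 without Cxcr4+/+ tumour 1 (limma adjusted p = 0.510).

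Timp3 was listed at 0 in all 3 Cxcr4-KO tumours, against 1.51, 0.210 and 0.211 FPKM in Cxcr4+/+ tumours 1, 2 and 4, or 70, 8 and 7 reads. The genotypes did not overlap, with Cxcr4-KO lower. Of all 13927 genes above 0 in a tumour, 693 (4.98%) were lower in Cxcr4-KO without overlap. Timp3 averaged under 1 FPKM in the tumours and was not among the genes tested. The entries of 0 carry the same limit as above. Cxcr4-KO tumour 8 had the lowest scaling of the tumours and the lowest read sum over genes kept ex vivo.

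Vcam1 was the only member higher in each tumour than in each ex vivo library. It was at 1.33, 4.00 and 9.03 FPKM in Cxcr4-KO tumours 5, 7 and 8, against 0.727, 5.01 and 1.39 FPKM in Cxcr4+/+ tumours 1, 2 and 4. The highest ex vivo value was 0.288 FPKM. The genotypes overlapped, with a log2 change of 0.74 (SE 0.72, 95% interval -0.94 to 2.43, limma adjusted p = 0.986). It was 0.23 without Cxcr4-KO tumour 8, 0.37 without Cxcr4+/+ tumour 1, 1.27 without Cxcr4+/+ tumour 2 and 1.28 without Cxcr4-KO tumour 5. Of the members tested in tumours limma called 0 of 2, beside 0.0372% of 10741 kept genes. At an unadjusted p under 0.05, 0 of 2 passed, beside 4.28%. In 0 of 2 did the groups fail to overlap, beside 9.21%. Cxcr4 itself, whose genotypes did not overlap, was not called in tumours either (log2 change -2.49, limma adjusted p = 0.986).

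Markers of other cells differed among these tumours. The summed level of 10 macrophage genes was 31.9, 57.0 and 92.4 FPKM in Cxcr4-KO tumours 5, 7 and 8, against 38.0, 72.6 and 14.2 FPKM in Cxcr4+/+ tumours 1, 2 and 4. Between 0 and 4 of the 10 were at 0 in a tumour. Ex vivo 7 of the 10 were at 0 in all libraries, Csf1r and C1qa among them. Vcam1 was highest in the tumour with the highest macrophage sum, Cxcr4-KO 8, and next in Cxcr4+/+ 2 and Cxcr4-KO 7, the tumours with the next sums. Among the other 3 the order did not hold, since Cxcr4+/+ 4 had the lowest sum but more Vcam1 than Cxcr4-KO 5 and Cxcr4+/+ 1. The part of macrophages in its level was not tested.

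The sum of 6 platelet and megakaryocyte genes was 13.8, 8.10 and 0.766 FPKM in Cxcr4-KO tumours, against 2.54, 17.2 and 9.41 FPKM in Cxcr4+/+ tumours. Summed monocyte and neutrophil genes reached 136 to 418 FPKM in Cxcr4-KO tumours, against 25.4 to 3316 FPKM in Cxcr4+/+ tumours, and summed erythroid genes 1890 to 20120 FPKM, against 687 to 23113 FPKM. The part of these cells in the Fn1 and Timp3 levels was not tested. The 4 matched markers of spleen stroma, Cxcl13, Madcam1, Tlx1 and Nkx2-3, were listed at 0 in all 12 libraries, and so were Cdh5, Kdr, Tek and Emcn among 10 endothelial markers. Pecam1, which leukocytes also carry, was at 32.0 to 55.5 FPKM with AMD3100, against 29.4 to 46.1 FPKM with vehicle, and at 20.0 to 45.2 FPKM in Cxcr4-KO tumours, against 15.8 to 48.0 FPKM in Cxcr4+/+ tumours. Egfl7 was at 4.32 to 12.4 FPKM with AMD3100, against 12.3 to 16.6 FPKM with vehicle, and at 0 to 0.666 FPKM in Cxcr4-KO tumours, against 0 to 6.62 FPKM in Cxcr4+/+ tumours. Eng was between 6.29 and 15.7 FPKM in Cxcr4-KO tumours, against 0.569 to 32.8 FPKM in Cxcr4+/+ tumours.

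**Figure D5:**
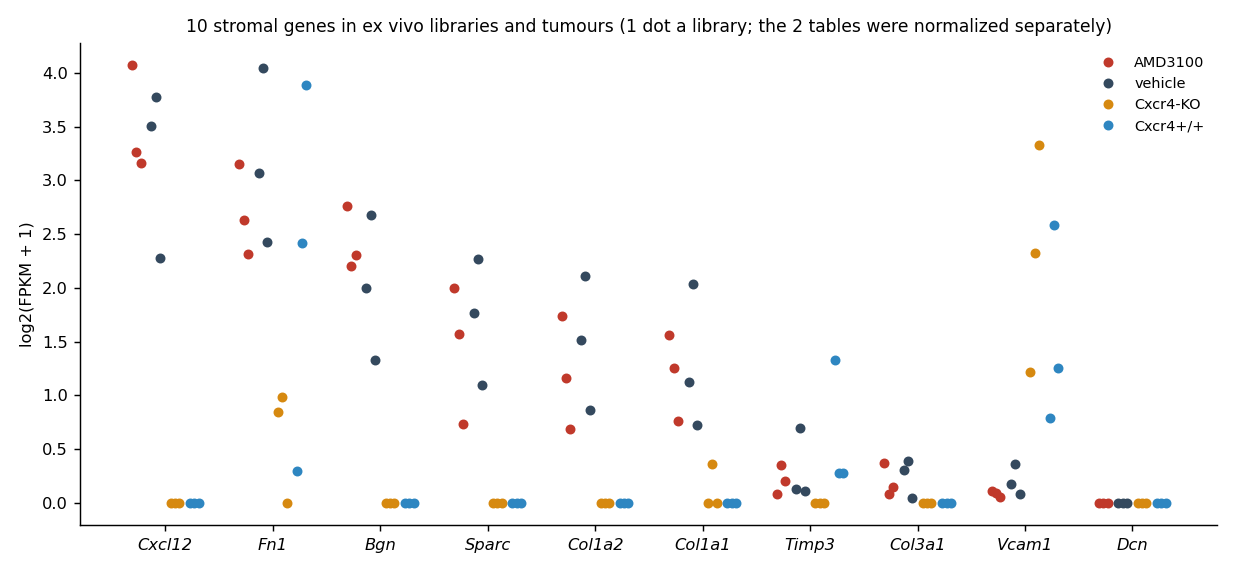
Level of the 10 members as log2(FPKM + 1) in every library, with AMD3100, vehicle, Cxcr4-KO and Cxcr4+/+ side by side for each gene; the 2 tables were normalized separately. Cxcl12, Bgn, Sparc, Col1a2, Col3a1 and Dcn lie at 0 in all 6 tumours, Fn1 reaches ex vivo levels in 2 Cxcr4+/+ tumours, and Vcam1 is higher in all 6 tumours than in any ex vivo library.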

How the data were processed

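The authors deposited FPKM values in 2 tables of 6 libraries each. Per the labels' protocols, libraries of poly-A RNA kept strand (dUTP) and reads were single, of 50 bases. CASAVA, TopHat and build mm9 are named in the submitters' processing notes. No source used here states the program behind the FPKM, its annotation, versions or use of strand.

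Each table was tested alone, two-sided, on log2(FPKM + 1) with limma 3.58.1 (R 4.3.3; lmFit, then eBayes allowing a mean trend). Genes averaging 1 FPKM or more were kept (10245 ex vivo, 10741 in tumours), with Benjamini-Hochberg adjustment over all kept genes and calls at an adjusted p under 0.05. Fold changes on this scale understate changes of low genes. Whole reads were recovered from the steps of low FPKM values. Of 602 genes under 1 FPKM in all 6 ex vivo libraries, 93.2% came out whole within 0.01 read. Of low tumour values, 95.7% to 97.7% came out whole within 0.01 read. Member values were taken as whole reads within 0.05. Both steps were tested on simulated data. Ratios, reads and figures used Python 3.11.15.

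No block entered the main fit. Same-numbered libraries had correlated deviations over all kept genes (correlations of 0.467, 0.579 and 0.619, each above 0.1), so the numbers were taken as pairs in the alternative fit with the block. Over the 6 tested members they were 0.672, -0.037 and -0.36. The labels do not say what a number marks. The SE and 95% intervals in the text come from the main fit and ignore the pairing. The members' SE ran from 0.38 (Bgn) to 0.46 (Cxcl12) there, against 0.22 (Sparc) to 0.31 (Fn1) with the block.

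The 10 members and the 7 pathway and 8 marker lists were chosen with earlier results of these data known. Text names all members, the 2 genes of each pathway list with the smallest blocked p, the 2 with the highest mean ex vivo, further called genes where a list had 5 or fewer, and marker genes by level. Plod2 and Angpt1 are named for their pattern over the libraries. Markers Ccl19, Ccl21a, Gp1bb, Hba-a1 and Hba-a2 were not matched to a single line. B cell markers (5) summed to 9.62 to 17.5 FPKM in Cxcr4-KO tumours, against 1.49 to 10.7 FPKM in Cxcr4+/+ tumours.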

Additional observations from a re-analysis of the deposited data

How the results depend on the processing

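None of the 20 alternatives ex vivo and 16 in tumours (other pseudocounts, filters, scalings and variance models, each library left out, and ex vivo the block) called a member. Of 146 member values under them, 138 kept their direction and 8 changed sign, none of these past the threshold. With 1 library left out, the log2 change of Cxcl12 lay between -0.14 and 0.61, of Col1a1 between -0.39 and 0.27, of Col1a2 between -0.62 and 0.0054, of Sparc between -0.58 and 0.077, of Fn1 between -0.85 and -0.045 and of Bgn between 0.086 and 0.76; in tumours that of Fn1 lay between -2.54 and -0.75 and that of Vcam1 between 0.23 and 1.28. Without vehicle 2 the log2 change of Col1a1 was 0.27, of Col1a2 0.0054 and of Sparc 0.0034; without AMD3100 3 that of Col1a1 was 0.11 and of Sparc 0.077; without vehicle 3 that of Cxcl12 was -0.14. With the replicate block, leaving out number 2 gave 0.24 for Col1a1 and 0.021 for Col1a2.

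The count of called genes ex vivo, 13 in all, was 8 with no filter, 188 at a filter of 5 FPKM, 89 with median-of-ratios scaling, 3 with quantile normalization, 1 without the variance trend, and 3 to 5 with a library left out. With the replicate block it was 2036, and 4, 6 and 559 without number 1, 2 and 3. In tumours, 4 genes were called, 0 with no filter and 0 to 2 with a library left out. The cause of these shifts was not tested. The block changed the call of no member. Depth limits Col3a1, Timp3 and Vcam1 ex vivo, where a library held at most 18 reads of each.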
